A study of Homo sapiens with 2 samples.

Results

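The 10 genes described here, CCND1, CCND3, CCNE1, CCNE2, CDK2, CDK4, CDK6, CDKN1B, CDKN2C and RB1, make up much of the switch that takes a cell out of G1. They were chosen by name, and all 10 were found among the 34237 gene symbols with matched transcripts. All 10 also passed the filter for comparison, a mean of at least 1 TPM over both libraries, which 11582 genes passed. TPM is a read share corrected for transcript length, so TPM levels can be set side by side between genes.

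Both libraries are of polyadenylated RNA from HepG2, an established line of human hepatic tumour cells. One library was grown with 1 µg/ml doxycycline (Dox) for 48 h and the other without Dox. Cells of both groups carry a cassette from which Dox switches on SAMD4B, a human counterpart of Smaug, a fly protein that binds RNA hairpins. The labels do not say whether the cells are a clone or a pool. With 1 library per group there is no replicate spread, no test is possible and no p-value is given. All values compare these 2 libraries, and an effect of Dox itself cannot be told apart from an effect of SAMD4B.

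In G1, cyclin D proteins bind CDK4 and CDK6 and start to phosphorylate the retinoblastoma protein, which holds E2F transcription factors inactive. Cyclin E with CDK2 completes this step, E2F is released, and the genes of DNA synthesis are transcribed. Inhibitors of the INK4 family, such as p18 from CDKN2C, bind CDK4 and CDK6, and inhibitors of the CIP/KIP family, such as p27 from CDKN1B, bind cyclin-CDK complexes. Much of this control acts on protein stability and phosphorylation, which RNA levels do not show.

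The library with Dox held an estimated 23574371 fragments and the library without Dox 18218720, as read from the steps of low TPM values. SAMD4B itself was at 261 TPM with Dox and 47.5 TPM without Dox. Hepatocyte markers were abundant, with ALB at 407 TPM with Dox and 445 TPM without Dox. AFP was at 12140 and 13406 TPM in the same order. Of the 10 hepatocyte markers, 9 were lower with Dox, where 47.0% of all genes compared were. None was lower by 1.5-fold, and their median log2 difference was -0.21. Over whole marker lists, the 6 fibroblast or stellate genes summed to 7.56 TPM with Dox and 4.97 TPM without Dox, of which PDGFRB made up 7.35 and 4.11 TPM in the same order, and the 4 endothelial genes to 4.66 and 4.57 TPM. The 4 cholangiocyte genes summed to 192 and 207 TPM, made up of SOX9, EPCAM and KRT19, with KRT7 at 0. The 5 leukocyte genes summed to 1751 and 1590 TPM, almost all of it LYZ, with the leukocyte-defining PTPRC and CD3E listed at 0 in both libraries. The part of these marker differences in the results was not tested.

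Across the 10 genes, differences were small and went both ways. CCND1, CDK6, CDKN1B and RB1 were higher with Dox, 4 of the 10, where 53.0% of all genes compared were. CCND3, CCNE1, CCNE2, CDK2, CDK4 and CDKN2C were lower, 6 of the 10, where 47.0% of all were. None of the 10 was at least 1.5-fold higher on the scale of TPM plus 1, where 5.32% of all genes compared were. On that scale only CDKN2C was at least 1.5-fold lower, 1 of 10 genes, where 3.90% of all genes compared were. The plain ratio of estimated fragments, described below for each gene, was beyond that size for CCND3 as well, at 0.652. On the log2 scale of the alternative settings, CCND3 was at -0.55 in estimated fragments, short of 1.5-fold. There 1 of the 10 genes was at least 1.5-fold lower, where 3.28% of all were. The median log2 difference was -0.09 over the 10 genes and 0.02 over all genes compared. With only 10 genes, these counts lie near those of all genes.

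**Figure D1:**
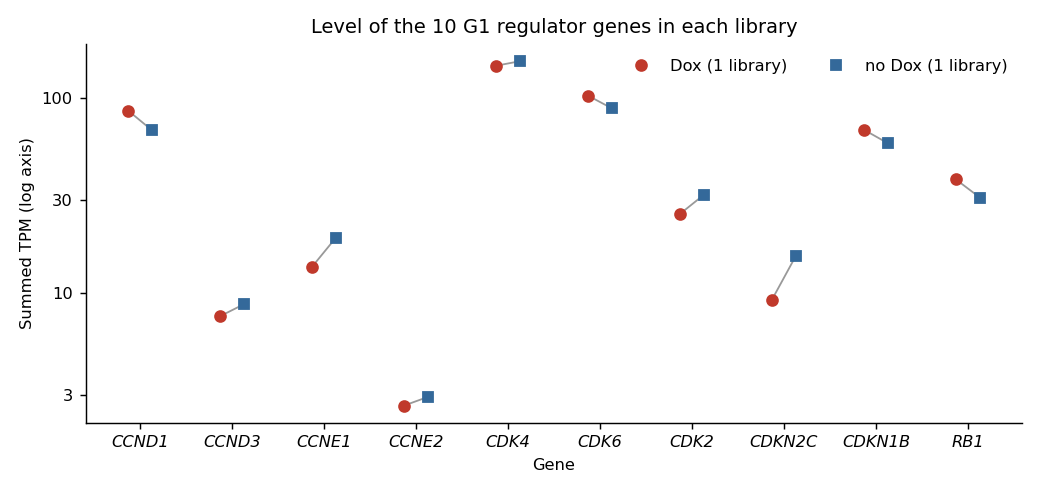
Summed TPM of each gene (log axis) in the library with Dox (red circles) and the library without Dox (blue squares). CDK4 was the most abundant of the 10 in both libraries and CCNE2 the least, and CDKN2C had the widest gap between libraries.

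The order of the levels was nearly the same in both libraries. With Dox it ran CDK4, CDK6, CCND1, CDKN1B, RB1, CDK2, CCNE1, CDKN2C, CCND3 and CCNE2, from 147 down to 2.66 TPM. Without Dox it ran from 155 down to 2.95 TPM, with CDK2 and RB1 in exchanged places. Neighbours in this order cannot be called different, because no spread was measured.

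Cyclin D1, from CCND1 (chromosome 11, 69641087 to 69654474, GRCh38), is the D-type cyclin that growth signals most often act on. CCND1 was at 86.4 TPM with Dox and 68.5 TPM without Dox, a log2 difference of 0.33. This was the largest positive difference among the 10 genes, and 14.7% of all genes compared lay above it. In estimated fragments divided by library depth, the ratio of Dox to no Dox was 1.23, with a 95% counting interval of 1.18 to 1.28. Such intervals cover counting error only, not variation between cultures. Almost all of the level lay on CCND1-201, the transcript with the full reading frame, at 99.3% of the gene's TPM with Dox and 99.1% without Dox. Exons of LTO1 on the opposite strand overlap 497 bases of it, and LTO1 was at 12.8 TPM with Dox and 10.9 TPM without Dox. Whether the libraries keep strand is not given in the sources used here, so reads in the overlap cannot be divided between the genes.

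CCND1 made up 88.2% of the summed TPM of the 3 D-type cyclin genes with Dox and 86.1% without Dox. CCND2, which is outside the group and was read from a list of related genes, was at 3.95 TPM with Dox and 2.26 TPM without Dox, at least 1.5-fold higher.

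CCND3 (chromosome 6, 41934933 to 42050357, GRCh38), which codes for cyclin D3, was lower with Dox by an amount that depended on which transcripts were counted, and its start sites differed in opposite directions. Its summed TPM was 7.64 with Dox and 8.80 without Dox, a log2 difference of -0.18. The log2 difference was -0.47 over coding transcripts alone, -0.44 without transcripts listed at 0 in either library, and -0.55 in estimated fragments. Of its 23 listed transcripts, 5 were above 0 in each library. Those starting far upstream, from 42048534 to 42048968, were at 4.56 TPM with Dox and 1.52 TPM without Dox. Those starting at the nearer site, from 41941519 to 41941848, were at 3.08 TPM with Dox and 7.12 TPM without Dox. The far group thus held 59.7% of the gene's TPM with Dox and 17.3% without Dox, and the nearer group 40.3% with Dox and 80.9% without Dox.

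The fragment estimates are computed from the same TPM values, so their matching directions are no separate evidence. The far group had an estimated 76 fragments with Dox and 27 without Dox, a depth-corrected ratio of 2.18 (95% counting interval 1.39 to 3.51). The nearer group had 102 fragments with Dox and 182 without Dox, a ratio of 0.433 (interval 0.336 to 0.555). These groups were formed after the values were seen. Joining starts within 1000 bp in place of 500 bp left the far group as it was and put the nearer one at 3.08 TPM with Dox and 7.28 TPM without Dox.

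The main transcript of the nearer site, CCND3-203, has a reading frame of 876 coding bases, or 292 residues. It was at 3.08 TPM with Dox and 6.79 TPM without Dox. The main transcript of the far site, CCND3-205, has an annotated reading frame of 288 coding bases, or 96 residues, and was at 2.15 TPM with Dox and 0.67 TPM without Dox. A short far-site transcript with no annotated frame, CCND3-217 (432 nt), was at 1.502 TPM with Dox and listed at 0 without Dox. Because it is under 600 nt it has no fragment estimate, and the fragment ratio of the whole gene, 0.652 (interval 0.531 to 0.7997), was lower than its TPM ratio. CCND3-213, a coding transcript of the far site, went the other way, at 0.61 TPM with Dox and 0.85 TPM without Dox. The pseudogene CCND3P1, which could take reads of CCND3, was at 0.19 TPM with Dox and listed at 0 without Dox. The share held by CCND3-203 was lower by 36.9 percentage points with Dox. A shift of at least 30 points in the share of the most abundant transcript was seen in 6.11% of the 10280 genes compared that had more than 1 transcript above 0, and in 4.64% of those whose most abundant transcript was above 0 in both libraries. None of the other 9 genes moved by 30 points, CDKN1B having a single transcript above 0. The TPM of a single transcript rests on how fragments were divided among overlapping transcripts, and here on few fragments.

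The sequences before these start sites are shown because the CCND3 difference turned on them. Each is the 250 bases before a RefSeq start (GRCh38.p14), on the minus strand, with the GC box GGGCGG, found on either strand, in capitals. Some annotated transcripts, CCND3-205 and CCND3-203 among them, begin inside these windows.
CCND3 far site, chr6:42048689-42048938: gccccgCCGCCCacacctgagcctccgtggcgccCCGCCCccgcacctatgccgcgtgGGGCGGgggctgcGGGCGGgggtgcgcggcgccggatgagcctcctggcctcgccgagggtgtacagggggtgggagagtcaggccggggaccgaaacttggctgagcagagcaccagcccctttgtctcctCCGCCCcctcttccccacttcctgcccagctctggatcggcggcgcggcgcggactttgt
CCND3 nearer site, chr6:41941809-41942058: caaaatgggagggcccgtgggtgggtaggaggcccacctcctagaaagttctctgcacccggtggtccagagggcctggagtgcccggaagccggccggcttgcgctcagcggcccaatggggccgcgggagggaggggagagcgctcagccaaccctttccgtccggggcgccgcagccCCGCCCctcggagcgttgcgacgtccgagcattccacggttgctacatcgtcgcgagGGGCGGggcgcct
The far window held 5 GC boxes and the nearer one 2, at a GC content of 74.4% and 71.2%. A GC box was present in 63.7% of 13192 such windows of all genes compared.

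**Figure D2:**
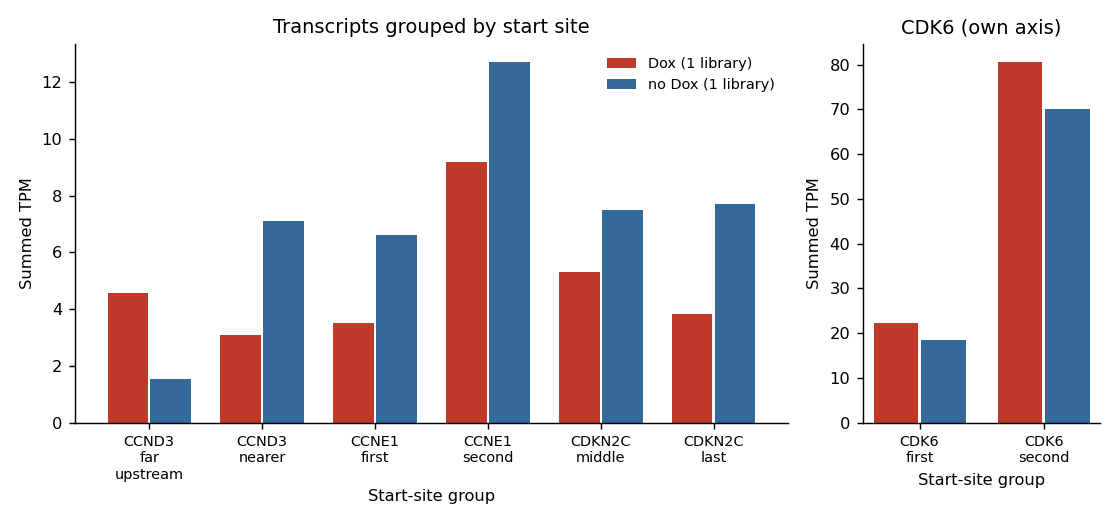
Summed TPM of transcripts grouped by start site for CCND3, CCNE1, CDKN2C and, on its own axis, CDK6, with Dox (red) and without Dox (blue), 1 library each. The far CCND3 group was higher with Dox (4.56 against 1.52 TPM), and the other 5 groups on the left axis were lower with Dox.

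Of the E-type cyclins, which activate CDK2 at the end of G1, CCNE1 was lower with Dox and CCNE2 showed no detectable difference. CCNE1 (chromosome 19, 29811898 to 29824308, GRCh38) was at 13.7 TPM with Dox and 19.3 TPM without Dox, a log2 difference of -0.47. Only 6.49% of all genes compared lay below it. Its fragment ratio was 0.681 (interval 0.590 to 0.787). Both of its main start sites were lower. Transcripts from the first site, at 29811898 to 29812004, were at 3.50 TPM with Dox and 6.60 TPM without Dox. The second site, at 29812654, gave CCNE1-203, at 9.18 TPM with Dox and 12.7 TPM without Dox. That transcript kept 67.1% of the gene's TPM with Dox and 65.8% without Dox.

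CCNE2 (chromosome 8, 94879770 to 94896678, GRCh38) was the least abundant of the 10, at 2.66 TPM with Dox and 2.95 TPM without Dox. It had an estimated 90 fragments with Dox and 79 without Dox, and its ratio of 0.880 had an interval of 0.644 to 1.21. A difference was not detectable at this depth. Its main transcript CCNE2-201 was at 1.92 TPM with Dox and 1.82 TPM without Dox, and CCNE2-202 was at 0.16 and 0.61 TPM in the same order. CCNE2-206, an annotated target of nonsense-mediated decay, was at 0.57 TPM with Dox and listed at 0 without Dox, whereas CCNE2-203, which retains an intron, was listed at 0 with Dox and at 0.51 TPM without Dox. INTS8 on the opposite strand shares 1519 bases with exons of CCNE2-201, 55.8% of that transcript, and was far more abundant, at 46.2 TPM with Dox and 35.7 TPM without Dox. The CCNE2 values are therefore uncertain.

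The balance of D-type over E-type cyclin RNA was higher with Dox. The summed TPM of the D-type genes was 5.999 times that of the E-type genes with Dox and 3.57 times without Dox. CCND1 alone stood at 6.32 times CCNE1 with Dox and 3.54 times without Dox. Ratios within a library do not depend on how the library is scaled.

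Among the kinases, the D-type partners CDK4 and CDK6 were far more abundant than CDK2. CDK4 (chromosome 12, 57747727 to 57756013, GRCh38) was at 147 TPM with Dox and 155 TPM without Dox, a log2 difference of -0.08 and a fragment ratio of 0.915 (interval 0.865 to 0.969). CDK6 (chromosome 7, 92604921 to 92836594, GRCh38) was at 103 TPM with Dox and 88.7 TPM without Dox, a log2 difference of 0.21 and a fragment ratio of 1.12 (interval 1.09 to 1.14). CDK6 thus stood at 0.703 of the CDK4 level with Dox and 0.573 without Dox. Both CDK6 start sites were higher with Dox. The long transcript CDK6-201, of 11612 nt, was at 80.6 TPM with Dox and 70.2 TPM without Dox, and CDK6-202 was at 22.2 and 18.5 TPM in the same order.

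The CDK4 level was spread over many transcripts, of which 12 were above 0 with Dox and 10 without Dox. CDK4-201, the main coding transcript, was at 57.0 TPM with Dox and 63.7 TPM without Dox. CDK4-210, which has no annotated reading frame, was at 32.2 TPM with Dox and 34.8 TPM without Dox, CDK4-204 at 22.5 and 25.5 TPM and CDK4-209 at 16.5 and 14.5 TPM in the same order. All of the transcripts listed at 0 in only 1 library were minor. The largest were CDK4-205, listed at 0 with Dox and at 4.68 TPM without Dox, and CDK4-203, at 3.55 TPM with Dox and listed at 0 without Dox. CDK4-215 and CDK4-207, both annotated targets of nonsense-mediated decay, were at 2.73 and 1.90 TPM with Dox and listed at 0 without Dox, and CDK4-206 was listed at 0 with Dox and at 1.44 TPM without Dox. TSPAN31 on the opposite strand overlaps 1078 bases of CDK4-201 and was at 11.0 TPM with Dox and 15.6 TPM without Dox.

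CDK2 (chromosome 12, 55966769 to 55972784, GRCh38), the kinase of cyclin E, was at 25.5 TPM with Dox and 32.0 TPM without Dox, a log2 difference of -0.32. Its fragment ratio was 0.820 (interval 0.747 to 0.901). The coding transcript CDK2-201 differed less, at 20.2 TPM with Dox and 22.8 TPM without Dox. CDK2-208, an annotated target of nonsense-mediated decay, was at 2.60 TPM with Dox and 3.43 TPM without Dox. Part of the gene's difference lay in CDK2-211, without a reading frame, which was listed at 0 with Dox and at 1.78 TPM without Dox. Transcripts not classed as coding held 11.0% of CDK2 TPM with Dox and 18.5% without Dox. The summed TPM of CDK4 and CDK6 was 9.78 times that of CDK2 with Dox and 7.61 times without Dox.

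Of the inhibitors, CDKN2C was lower with Dox and CDKN1B was higher. CDKN2C (chromosome 1, 50960745 to 50974633, GRCh38) was at 9.28 TPM with Dox and 15.6 TPM without Dox, a log2 difference of -0.69, or 0.620-fold on the scale of TPM plus 1. Only 2.60% of all genes compared lay below it. The fragment ratio was 0.607 (interval 0.512 to 0.719), from an estimated 249 fragments with Dox and 317 without Dox. All 3 listed transcripts were lower, and all 3 are annotated as coding. CDKN2C-203, from the middle start site at 50968695, was at 5.30 TPM with Dox and 7.49 TPM without Dox (ratio 0.690, interval 0.560 to 0.850). CDKN2C-202, from the last site at 50969944, was at 3.81 TPM with Dox and 7.70 TPM without Dox (ratio 0.478, interval 0.346 to 0.658). The intervals of these ratios overlap.

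The window before the middle CDKN2C start is shown because it was the only one of 12 windows, from 7 of the 10 genes, with the shorter E2F words searched. The RB1 window among them lies before RB1-204, a retained-intron transcript, and not before the main RB1 start. The longer words, searched first, TTTGGCGC, TTTCCCGC, TTTCGCGC and TTTGCCGC on either strand, were in none of the 12 windows and in 4.24% of those of all genes compared. Without the first T, a form chosen after that result was seen, they were in 1 of the 12 and in 16.4% of all. The sequence is the 250 bases before a RefSeq start (GRCh38.p14), plus strand, with the shorter E2F words (GCGGGAA, and TTCCCGC nearest the start) and the GC boxes in capitals. CDKN2C-203 begins just inside it.
CDKN2C middle site, chr1:50968456-50968705: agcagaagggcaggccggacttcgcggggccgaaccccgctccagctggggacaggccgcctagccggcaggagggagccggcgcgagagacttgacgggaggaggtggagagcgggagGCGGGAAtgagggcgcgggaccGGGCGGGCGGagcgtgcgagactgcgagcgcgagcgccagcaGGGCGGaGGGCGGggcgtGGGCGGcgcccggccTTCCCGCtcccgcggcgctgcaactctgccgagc
A match is of letters only and says nothing about binding.

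CDKN1B (chromosome 12, 12715058 to 12722371, GRCh38) was at 68.9 TPM with Dox and 58.8 TPM without Dox, all of it on CDKN1B-201. The log2 difference was 0.23 and the fragment ratio 1.14 (interval 1.08 to 1.21). It held 57.1% of the summed TPM of the CIP/KIP genes with Dox and 60.1% without Dox, the rest being CDKN1A, at 51.8 TPM with Dox and 39.0 TPM without Dox, with CDKN1C listed at 0. CDKN2C held 59.3% of the summed TPM of the 4 INK4 genes with Dox and 77.7% without Dox. INK4 RNA together was small beside that of its targets, at 6.27% of the summed CDK4 and CDK6 TPM with Dox and 8.23% without Dox.

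RB1 (chromosome 13, 48303726 to 48599436, GRCh38), which codes for the retinoblastoma protein, was at 38.3 TPM with Dox and 31.0 TPM without Dox. The log2 difference was 0.30 and the fragment ratio 1.15 (interval 1.09 to 1.22). RB1-201, with the full reading frame, was at 36.0 TPM with Dox and 30.5 TPM without Dox. RB1-207, an annotated fragment of 329 nt, was at 1.53 TPM with Dox and listed at 0 without Dox, and is too short for a fragment estimate. RB1 held 47.8% of the summed TPM of the 3 pocket protein genes with Dox and 45.1% without Dox.

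**Figure D3:**
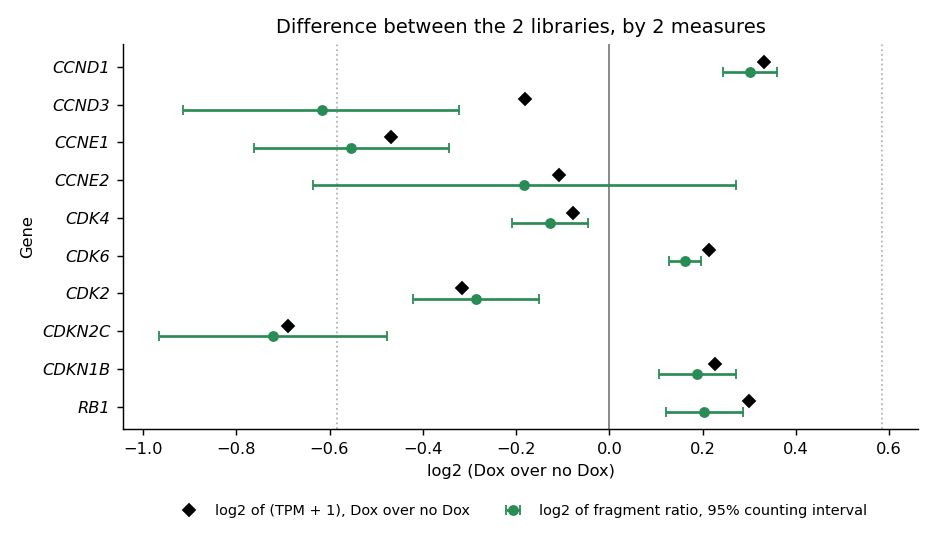
Log2 difference, Dox over no Dox, for each gene on the scale of TPM plus 1 (black diamonds) and as a ratio of estimated fragments with its 95% counting interval (green circles and bars). Dotted lines mark 1.5-fold, and both measures, computed from the same TPM values, lie on the same side of 0 for all 10 genes.

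By fragment ratio, the counting interval lay above 1 for 4 of the 10 genes and below 1 for 5, and that of CCNE2 held 1. Over the 9786 genes with such a ratio, 24.5% lay above 1 and 28.9% below. The interval narrows with abundance, and these genes are mostly abundant, so the counts are given as a description.

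Because the cassette drives a Smaug homologue, the most abundant transcript of each gene was searched for Smaug-type hairpins. The pattern was a loop of 5 to 7 bases that begins CNGGN, closed by at least 4 complementary base pairs. Such a hairpin was found in 8 of the 10 genes, and in 53.1% of all genes compared. The median was 0.317 per 1000 nt over the 10 genes and 0.172 over all genes compared. CCNE2 and CDK4 had none, and CCND3 had the most, with 4. The genes with a hairpin included those higher and those lower with Dox. The following hairpins are shown for CDKN2C, for CCND1 and RB1, which had the largest positive differences, and for CDKN1B, with the loop in capitals and the stem in lower case (GENCODE release 29, GRCh38).
CDKN2C-203, coding, chr1:50973965-50973977, plus strand: cgaaCTGGTttcg
CCND1-201, coding, chr11:69651132-69651144, plus strand: ctgcCAGGAgcag
RB1-201, 3' UTR, chr13:48481202-48481215, plus strand: aacaCTGGCAtgtt
CDKN1B-201, 3' UTR, chr12:12721575-12721596, plus strand: tgggagatCTGGTGatctccca
The CDKN1B hairpin has a stem of 9 pairs, of which 8 are printed, and a stem of at least 9 pairs was found in 28 of the 11582 genes compared. It was singled out after the search. A match of this kind is a description of the sequence, and nothing was measured on binding there.

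Genes around the switch were read from lists of related genes. All 20 E2F target genes of G1 and S entry were lower with Dox, against 47.0% of all genes compared. For 3 of the 20 the gap was at least 1.5-fold, against 3.90% of all genes. In fragments, CDT1 and GINS2 also passed that size, at ratios of 0.664 and 0.654. Their median log2 difference was -0.35. UHRF1, which recruits DNA methylation to new strands, was at 0.90 TPM with Dox and 5.38 TPM without Dox (fragment ratio 0.145, interval 0.105 to 0.196). RRM2, a subunit of ribonucleotide reductase, was at 20.1 TPM with Dox and 50.2 TPM without Dox, and the origin licensing factor CDC6 at 35.2 and 58.9 TPM in the same order. All 6 proliferation markers were lower too, with a median of -0.24, but BUB1 by no detectable amount. BUB1 was at 39.3 TPM with Dox and 39.6 TPM without Dox (fragment ratio 0.993, interval 0.931 to 1.06). The interval lay below 1 for 5 of the 6, against 28.9% of all genes with such a ratio. None of the 6 was lower by 1.5-fold, and MKI67 came nearest, at 21.8 TPM with Dox and 30.8 TPM without Dox. The mitotic kinase AURKB followed, at 17.1 and 21.5 TPM in the same order. In bulk RNA, fewer cells in a phase and less RNA per cell cannot be told apart. That replication genes were lower was already known of these data when the lists were made.

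Pocket proteins and E2F and DP factors had a median of -0.13, with 11 of the 16 compared lower, against 47.0% of all genes. MYBL2, a transcription factor of cell cycle genes, was the only one lower by at least 1.5-fold on the scale of TPM plus 1. It was at 28.95 TPM with Dox and 45.3 TPM without Dox (fragment ratio 0.621, interval 0.576 to 0.669). In fragments E2F7, a repressor of E2F targets, had a lower ratio, 0.519 (interval 0.417 to 0.644), although its TPM was 2.62 with Dox and 2.65 without Dox. E2F1 was at 5.64 TPM with Dox and 8.37 TPM without Dox (ratio 0.656, interval 0.548 to 0.785), whereas the repressor-type E2F4 was at 42.1 and 41.5 TPM in the same order.

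Among 13 other cyclins and kinases compared, 9 were lower with Dox, against 47.0% of all genes. The gap reached 1.5-fold for 3 of these, CDK7, CDK5 and CCNC, against 3.90% of all genes, and CCND2 alone was higher by as much. In fragments, CCNF was lower by that size too, at a ratio of 0.646. The median was -0.31, and -0.18 with a pseudocount of 5 TPM, with no filter on low genes or without transcripts listed at 0 in either library. CDK7, the kinase that activates CDKs by phosphorylation of their T-loop, was at 24.9 TPM with Dox and 55.8 TPM without Dox. On the scale of TPM plus 1 it was 0.456-fold. Its fragment ratio was much lower, 0.157 (interval 0.133 to 0.185), from an estimated 178 fragments with Dox and 874 without Dox. The size of the difference thus depended on the measure. The counting interval does not cover how TPM was divided among transcripts. The partners of CDK7 in its complex were not lower in TPM. CCNH was at 48.5 TPM with Dox and 46.5 TPM without Dox, and MNAT1 at 38.0 and 30.9 TPM in the same order. CDK5, a kinase best known from neurons, was at 12.2 TPM with Dox and 23.5 TPM without Dox, and CCNC, the cyclin of the Mediator kinase module, at 69.1 and 106.9 TPM.

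Of 4 other CDK inhibitors compared, 3 were higher with Dox, where 53.0% of all genes were. CDKN2A was higher by at least 1.5-fold but scarce, at 3.52 TPM with Dox and 1.59 TPM without Dox (fragment ratio 1.95, interval 1.16 to 3.40). Factors that control G1 proteins by turnover or dephosphorylation had a median of 0.03, with 12 of 21 higher, near the 53.0% of all genes. Of these, only CDC25A, the phosphatase that activates CDK2, differed by 1.5-fold, at 10.7 TPM with Dox and 16.7 TPM without Dox. SKP2 and CKS1B, which direct p27 to degradation, were at 24.1 and 136 TPM with Dox and at 26.3 and 165 TPM without Dox.

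**Figure D4:**
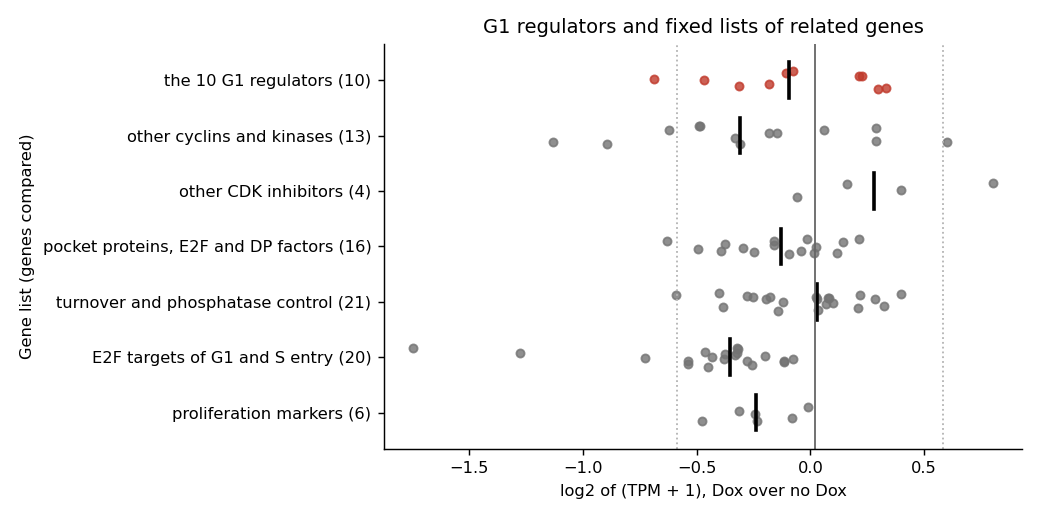
Log2 difference (TPM plus 1, Dox over no Dox) of each gene compared in the group of 10 (red) and in 6 lists of related genes (grey), with list medians as black bars. The grey line is the median of all genes compared (0.02) and dotted lines mark 1.5-fold; all E2F targets lie below 0, while the 10 genes lie on both sides.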

How the data were processed

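RNA of 2 HepG2 libraries was compared, 1 with Dox and 1 without. The authors deposited TPM values for 184844 Ensembl transcripts; Trimmomatic, Salmon and GRCh38.p13 are named in the submitters' processing notes. Of these transcripts, 161798 were matched to GENCODE release 29 and summed per gene, and 23046 were not matched (6.66% of TPM with Dox, 6.73% without Dox). After adding 1 TPM to each value, the log2 of the Dox to no-Dox quotient was taken for genes with a mean of 1 TPM or more, which understates the change of low genes. Fragments were estimated from steps in low TPM of single-transcript genes of at least 600 nt, with an offset of 300 nt. Of low values, 80.4% (with Dox) and 77.0% (without Dox) lay within 0.1 of a whole number, where 20% would by chance, and the fit used these same values. Ratios have exact 95% binomial (Clopper-Pearson) intervals, for genes with at least 80% of TPM on such transcripts. That share was not required of start-site groups. Salmon divides shared fragments among transcripts, so single-transcript TPM is less certain than gene sums. Transcripts were named at 10% of the gene's TPM in either library, or at 1 TPM with a 2-fold difference. Of each list, members at least 1.5-fold different were named, and otherwise the 2 most different ones. CCNH, MNAT1, E2F1, E2F4, SKP2, CKS1B, CDKN1A, CDKN1C and CCND3-213 were picked after values were seen. So were the markers ALB, AFP, PDGFRB, LYZ, PTPRC, CD3E, KRT7, SOX9, EPCAM and KRT19. E2F7, CDT1, GINS2, CCNF and BUB1 were named for their fragment ratios, also after values were seen. Members and lists were chosen with earlier results of these data known. Scripts used Python 3.11.15, pandas 2.3.3 and scipy 1.17.1, and were checked on simulated data.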

Additional observations from a re-analysis of the deposited data

How the results depend on the processing

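Under 9 alternative settings (pseudocounts of 0.1 and 5 TPM, no filter or a minimum of 5 TPM, coding transcripts only, transcripts at 0 in either library left out, estimated fragments, and rescaling without mitochondrial transcripts or by the median ratio), all 89 values of the 10 genes kept their direction. A change of pseudocount or filter cannot alter the direction of a gene, so only the other settings could have done so. CCNE2 has no value at a minimum of 5 TPM. With a pseudocount of 5 TPM, 0 genes were at least 1.5-fold lower, and CDKN2C was at -0.53 on the log2 scale. CCND3 was at -0.47 with coding transcripts only and at -0.44 without transcripts at 0. In estimated fragments CCND3 was at -0.55, CDK6 at 0.16 and RB1 at 0.20. For CCND3 its short transcript is left out there. That -0.55 is short of 1.5-fold, whereas the plain fragment ratio of CCND3, 0.652, is beyond it. With coding transcripts only, the median of the turnover list was -0.09, and in estimated fragments -0.02, against 0.03. The median of other cyclins and kinases was -0.18 with a pseudocount of 5 TPM, no filter or transcripts at 0 left out, and that of other CDK inhibitors 0.13 with no filter and 0.15 with transcripts at 0 left out. The median-ratio rescaling was a shift of 0.02 on the log2 scale. Depth limits values that rest on few fragments, among them CCNE2 and single start sites. No paired analysis was possible because each group holds 1 library.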
